A study of Mus musculus with 4 samples.

Results

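The 10 genes described here encode the proteins that fuse, divide and move mitochondria, and their mRNA levels were followed from the germinal vesicle (GV) oocyte through 12 h of culture with or without tubastatin A (TubA). They were listed by name for their function, with earlier results of these data known, as *Mfn1*, *Mfn2* and *Opa1* (fusion), *Dnm1l*, *Fis1* and *Mff* (fission), and *Rhot1*, *Rhot2*, *Trak1* and *Trak2* (transport). All 10 were found, each as 1 entry, among the 21957 genes of the deposited table.

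Mitofusins, the products of *Mfn1* and *Mfn2*, join the outer membranes of neighbouring mitochondria, and OPA1 joins the inner membranes. DRP1, the product of *Dnm1l*, is a cytoplasmic GTPase that is recruited to the outer membrane by adaptors such as MFF and there constricts the organelle. Miro proteins (*Rhot1*, *Rhot2*) sit in the outer membrane and, through the TRAK adaptors, tether mitochondria to kinesin and dynein motors on microtubules. The oocyte holds a very large number of small mitochondria, which gather around the meiotic spindle during maturation. TubA was made as an inhibitor of HDAC6, a cytoplasmic deacetylase of which α-tubulin is the best known substrate, and MIRO1, the product of *Rhot1*, is also known as a substrate.

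Oocytes came from B6D2F1 (C57BL/6 x DBA) female mice of 6 to 8 weeks that had been primed with gonadotropin, and were stripped of cumulus cells. Untreated oocytes were taken at the GV stage (0 h) or after 12 h in M16 medium (MII, kept only if a polar body had been extruded), and treated oocytes were kept for 12 h in M16 with 10 μM (TubA-10) or 20 μM TubA (TubA-20). Whether the untreated oocytes received DMSO, the solvent of TubA, is not given in the sources used here. No selection by polar body is stated for the treated oocytes. The paper reports that treated oocytes did not extrude a polar body and that the higher dose blocked their passage to MII. Changes between the higher dose and MII thus set arrested oocytes against oocytes with a polar body. Effects of the drug and of the stage reached therefore cannot be told apart. The doses follow the sample titles. In the treatment field TubA-10 carries 20 μM and TubA-20 carries 11 μM. Each condition was 1 library from a pool of 100 oocytes, so no difference below has a replicate check, and none is given a p-value.

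Levels are FPKM (fragments scaled to the length of the transcript and to the mapped fragments of the library), which can be compared between genes. Changes are log2 ratios of FPKM + 1, and more than 2-fold means a log2 ratio beyond 1 or −1. The RNA had been selected by its poly(A) tail and the values are relative to each library, so fewer mRNA molecules per oocyte and shorter tails cannot be told apart, nor can fewer oocytes with an mRNA in the pool and less of it in each. Judged from the step between the lowest FPKM values, the depth relative to GV was 1.63 in MII, 1.68 at 10 μM and 0.896 at 20 μM. These are rough estimates, since at most 26.9% of the low genes lay on a step, and by the read totals that the study states TubA-20 lay slightly above GV, not below it. Of 12 oocyte markers 12 were above 0 in every library, with summed levels of 18051 to 23212 FPKM, although single markers moved in both directions (in GV and TubA-20 *Figla* was at 90.5 and 12.4 FPKM, *Zp3* at 2454 and 973, and *Oosp1* at 2699.9 and 6213). The summed level of 12 cumulus and granulosa cell markers was 20.2 to 25.5 FPKM, carried mainly by *Nr5a2* and *Cyp19a1*, with *Foxl2* listed at 0 in all libraries, and at most 1 of 4 blood cell markers was above 0. The granulosa marker *Inha* was at 7.50 FPKM in GV and at no more than 0.314 FPKM in the other libraries, and the part of such cells in the changes against GV was not tested.

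The levels of the 10 genes spanned a wide range, and the order was nearly the same in every library. *Mff* was the highest, above the level of 97.1% of all genes in GV and 99.0% in TubA-20. *Fis1* and *Rhot1* came next and changed places, *Fis1* being the higher in GV and TubA-10 and *Rhot1* in MII and TubA-20. *Dnm1l* and then *Mfn1* followed in all 4 libraries. *Trak2* was the lowest in every library. The highest level was 119 times the lowest in GV oocytes, 240.4 times in MII oocytes, 329 times at 10 μM and 370.0 times at 20 μM. *Rhot2* was above *Opa1* in GV and below it in the cultured libraries, and in TubA-20 also below *Mfn2*. With 1 library for each condition, whether neighbours in this order differ beyond their spread is not known.

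**Figure D1:**
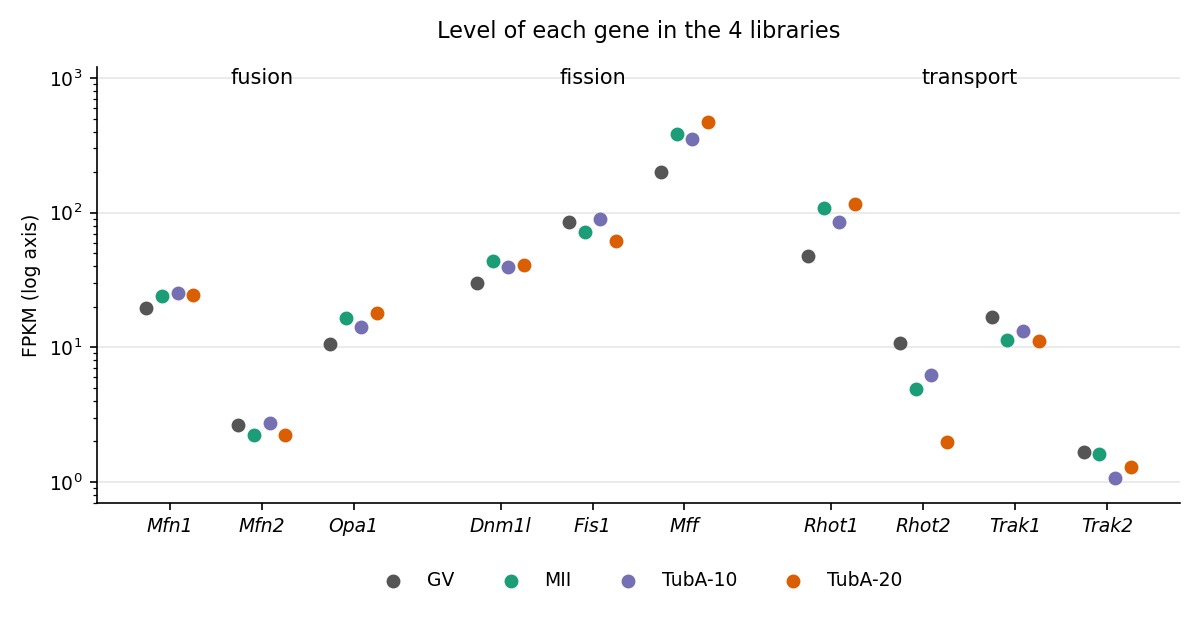
FPKM (log axis) of the 10 genes in the GV, MII, TubA-10 and TubA-20 libraries, 1 point for each library. *Rhot1* and *Mff* were lowest in GV, *Rhot2* went down from 10.7 FPKM (GV) to 1.98 FPKM (TubA-20), and *Mfn2* and *Trak2* stayed under 3 FPKM.

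The 3 fission genes summed to 314.7 FPKM in GV oocytes and to between 483 and 578 FPKM after culture, most of it *Mff*. The 4 transport genes summed to 76.5 FPKM in GV oocytes and 105.6 to 130.4 FPKM after culture, most of it *Rhot1*. The 3 fusion genes were the lowest class, at 33.0 FPKM and then 42.3 to 44.8 FPKM.

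Within gene families 1 member carried most of the mRNA. *Mfn1* exceeded *Mfn2* by 7.39 to 11.0 times, and *Trak1* exceeded *Trak2* by 7.003 to 12.3 times. The Miro genes differed most between libraries, and *Rhot1* exceeded *Rhot2* 4.41 times in GV oocytes, 22.0 times in MII oocytes, 13.8 times at 10 μM and 58.8 times at 20 μM.

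The sequences below are the 3′ ends that frame the results on *Rhot1*, *Rhot2* and *Mff*, the genes with the widest ranges, and on *Mfn1*. In oocytes the fate of a stored mRNA is set largely at its 3′ end, where the cytoplasmic polyadenylation element (CPE) is bound by CPEB1 and the polyadenylation signal by CPSF. Capitals mark the signal (AATAAA) or a CPE (TTTTAT), read 5′ to 3′ on the strand of the gene in the principal GENCODE M21 transcript (GRCm38).
Rhot1 signal: ttccatgtatcaAATAAAttgatctcagtt
Rhot1 CPE: ccttattattatTTTTATtacatttgtctt
Rhot2 CPE: aaatatgcttatTTTTATgagtttgagtgt
Mff signal: tgtagtgtatttAATAAActgtcaaccaaa
Mfn1 CPE: tttacaaaacatTTTTATaagtatgcaagc
Mfn1 signal: ttgcaagatgaaAATAAAcctatccgccta

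All of them lie in 3′ UTRs. The coordinates are those of the printed windows of 30 bases, and each CPE is the match nearest the 3′ end of its transcript. The window of the *Rhot1* signal is chr11:80267457-80267486 and that of its last CPE chr11:80267230-80267259 on the plus strand. The window of the *Rhot2* CPE is chr17:25838673-25838702 on the minus strand and that of the *Mff* signal chr1:82752361-82752390 on the plus strand. The adjoining *Mfn1* windows are at chr3:32579164-32579193 and chr3:32579194-32579223, plus strand. Searched on the transcribed strand for TTTTAT and TTTTAAT, which cannot match at the same start, the 3′ UTR held 5 matches in *Rhot1*, 1 in *Rhot2*, 0 in *Mff* and 4 in *Mfn1*. Of the 10 genes only *Mfn1* had a match within 100 bases before an AATAAA or ATTAAA that starts in the last 40 bases, 30 bases before its signal. Over 7863 genes with at least 5 FPKM in a library and such a transcript, 16.4% had this arrangement. *Rhot2* and *Opa1* had no AATAAA or ATTAAA that starts in the last 40 bases, so neither could have it. A match is a run of letters in an annotated transcript, and the 3′ ends used in these oocytes are not analysed here.

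*Rhot1* (chromosome 11, 80209019 to 80267907) encodes MIRO1, and was at 47.4 FPKM in GV oocytes, 108.4 in MII oocytes, 85.1 with 10 μM TubA and 116 with 20 μM TubA. GV was the lowest library by far, and MII and TubA-20 lay close together above TubA-10. The log2 change was 1.18 in MII against GV, which is 2.26-fold, 0.83 at 10 μM and 1.28 at 20 μM against GV. *Rhot1* was the only member more than 2-fold higher in MII than in GV, where 3.05% of all genes and 8.26% of genes with at least 5 FPKM in either library were. Among the latter 7685 genes, 241 (3.14%) had a change as high. Against MII it differed by −0.34 at 10 μM and by 0.10 at 20 μM, the latter turning to between −0.06 and −0.02 when libraries were scaled to the same FPKM sum, upper quartile or *Gapdh* level.

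*Rhot2* (chromosome 17, 25838457 to 25844851) encodes the paralogue MIRO2, and was at 10.7 FPKM in GV oocytes, 4.94 in MII oocytes, 6.17 with 10 μM TubA and 1.98 with 20 μM TubA. Its order over the libraries was the reverse of that of *Rhot1*, with GV highest and TubA-20 lowest. Relative to GV the log2 change was −0.98 in MII oocytes, −0.71 at 10 μM and −1.98 at 20 μM, the last being 3.95-fold. The change in MII passed 2-fold with both smaller pseudocounts (−1.11 with 0.1, −1.12 with 0.01) and after centring all changes on their median (−1.11), and was smaller after scaling to the same FPKM sum (−0.87), upper quartile (−0.93) or *Gapdh* level (−0.78). In MII 21.1% of genes with at least 5 FPKM had one as low. Of the members only *Rhot2* was more than 2-fold lower with 20 μM TubA than in GV oocytes, where 11.7% of all genes and 26.8% of those with at least 5 FPKM were lower. It had the widest range of the 10 genes over the 4 libraries, 1.98 log2, and 13.1% of 7897 genes with at least 5 FPKM in a library had a wider one.

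Among the cultured libraries *Rhot2* stood apart at the higher dose. Its log2 change was −0.996 in TubA-20 against MII, just short of 2-fold at 1.99-fold, and 0.27 in TubA-10 against MII. Of 7197 genes with at least 5 FPKM in TubA-20 or MII, which *Rhot2* itself just missed, 444 (6.17%) had a change as low as that in TubA-20. Against TubA-10 the change in TubA-20 was −1.27, and *Rhot2* was the only member past 2-fold between both doses, where 5.52% of all genes were lower and 0.660% higher. Of 7374 genes with at least 5 FPKM in either of these libraries, 14.1% were lower and 1.45% higher, and 9.03% had a change as low as that of *Rhot2*. It passed 2-fold against MII with pseudocounts of 0.1 (−1.28) and 0.01 (−1.32), after centring all changes on their median (−1.02), and after scaling libraries to the same FPKM sum (−1.11), upper quartile (−1.08) or *Gapdh* level (−1.12). In the annotation *Rhot2* shares 3307 bases with the gene *Gm20683* and 81 bases with *Wdr90*, both on the same strand, so its level is uncertain where reads were divided among them. *Wdr90* had 1.22 FPKM in GV oocytes and 2.05 FPKM with 20 μM TubA, and no value was found under the symbol *Gm20683*.

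The sum of both Miro genes was 58.1 FPKM in GV oocytes, 113 in MII oocytes, 91.3 with 10 μM TubA and 118.0 with 20 μM TubA, so it followed *Rhot1*. *Rhot2* made up 18.5% of this sum in GV oocytes, 4.36% in MII oocytes, 6.76% at 10 μM and 1.67% at 20 μM. A ratio within a library does not move with the scaling of libraries. The ratio of *Rhot1* to *Rhot2* was 4.98 times its GV value in MII, 3.13 times at 10 μM and 13.3 times at 20 μM. Against MII it was 2.68 times as high in TubA-20 and 0.628 times as high in TubA-10.

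**Figure D2:**
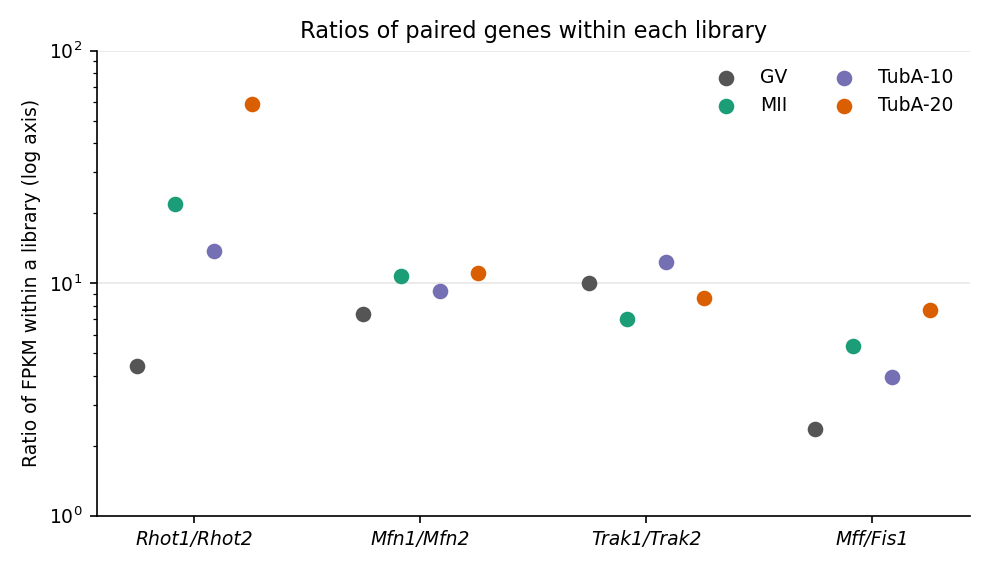
Ratio of FPKM within each library (log axis) for 4 pairs of genes, 1 point for each of GV, MII, TubA-10 and TubA-20. The ratio of *Rhot1* to *Rhot2* ran from 4.41 in GV to 58.8 in TubA-20 and that of *Mff* to *Fis1* from 2.36 to 7.66, while *Mfn1* to *Mfn2* stayed between 7.39 and 11.0.

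*Trak1* (chromosome 9, 121297502 to 121474918) encodes an adaptor between Miro and the motors, and was at 16.7 FPKM in GV oocytes, 11.3 in MII oocytes, 13.3 with 10 μM TubA and 11.1 with 20 μM TubA. GV was highest, and MII and TubA-20 were nearly equal in FPKM. Relative to GV the log2 change was −0.53 in MII oocytes, −0.32 at 10 μM and −0.55 at 20 μM, and relative to MII it was 0.22 at 10 μM and −0.02 at 20 μM. With the same *Gapdh* level it was −0.07 at 10 μM relative to GV and −0.16 at 20 μM relative to MII. *Trak2* (chromosome 1, 58900449 to 58973430), its paralogue, was at 1.67 FPKM in GV oocytes, 1.61 in MII oocytes, 1.08 with 10 μM TubA and 1.28 with 20 μM TubA. Both doses were below both untreated libraries, but at such levels a pseudocount of 1 hides much of a change. The log2 changes against MII were −0.33 at 10 μM and −0.19 at 20 μM, and −0.58 and −0.32 with a pseudocount of 0.01.

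*Mff* (chromosome 1, 82724890 to 82752394), the outer membrane receptor of DRP1, was at 199.9 FPKM in GV oocytes, 386 in MII oocytes, 354 with 10 μM TubA and 475 with 20 μM TubA. GV was lowest and TubA-20 highest, as for *Rhot1*. Relative to GV the log2 change was 0.95 in MII oocytes, 0.82 at 10 μM and 1.25 at 20 μM, which is 2.37-fold. *Mff* and *Rhot1* were the 2 members more than 2-fold higher in TubA-20 than in GV, where 7.61% of all genes and 20.2% of genes with at least 5 FPKM in either library were. Against MII the change in TubA-20 was 0.30, and 26.5% of 7197 genes had one as high. It was 0.16, 0.18 and 0.14 after scaling to the same FPKM sum, upper quartile and *Gapdh* level. The change from GV to MII passed 2-fold when libraries were scaled to the same FPKM sum (1.08), upper quartile (1.01) or *Gapdh* level (1.18).

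*Fis1* (chromosome 5, 136953275 to 136966234), a small outer membrane protein with a less settled part in fission, was at 84.6 FPKM in GV oocytes, 72.1 in MII oocytes, 89.4 with 10 μM TubA and 62.1 with 20 μM TubA. TubA-10 was the highest library and TubA-20 the lowest, and the log2 change between them was −0.52. Against GV the changes were −0.23 in MII, 0.08 at 10 μM and −0.44 at 20 μM, and over the alternatives they ranged from −0.35 to −0.0024, from −0.06 to 0.34 and from −0.63 to −0.37. *Mff* exceeded *Fis1* 2.36 times in GV oocytes, 5.36 times in MII oocytes, 3.96 times at 10 μM and 7.66 times at 20 μM. *Dnm1l* (chromosome 16, 16312230 to 16358959) was at 30.2 FPKM in GV oocytes, 44.0 in MII oocytes, 39.7 with 10 μM TubA and 41.1 with 20 μM TubA. The 3 cultured libraries lay together above GV, with log2 changes of 0.53 (MII), 0.39 (TubA-10) and 0.43 (TubA-20), and against MII the changes were −0.14 at 10 μM and −0.10 at 20 μM (down to −0.25 with other scalings).

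*Opa1* (chromosome 16, 29579334 to 29654884) was at 10.6 FPKM in GV oocytes, 16.5 in MII oocytes, 14.2 with 10 μM TubA and 18.0 with 20 μM TubA. Its order over the libraries was that of *Rhot1* and *Mff*, over a smaller range. Relative to GV the log2 change was 0.59 in MII oocytes, 0.38 at 10 μM and 0.71 at 20 μM. Relative to MII it was −0.20 at 10 μM and 0.12 at 20 μM, and the latter became −0.01 after scaling to the same FPKM sum and −0.03 after scaling to the same *Gapdh* level.

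*Mfn1* (chromosome 3, 32529465 to 32579239) was the main mitofusin mRNA, at 19.7 FPKM in GV oocytes, 23.8 in MII oocytes, 25.4 with 10 μM TubA and 24.5 with 20 μM TubA. The cultured libraries were nearly level, and log2 changes against GV were 0.26 in MII, 0.35 at 10 μM and 0.30 at 20 μM. Over the alternatives these ranged from 0.14 to 0.48, from 0.21 to 0.61 and from 0.11 to 0.37. Against MII the changes were 0.09 at 10 μM and 0.04 at 20 μM, the latter negative with 3 scalings (down to −0.11). *Mfn2* (chromosome 4, 147873599 to 147904704) was at 2.67 FPKM in GV oocytes, 2.23 in MII oocytes, 2.74 with 10 μM TubA and 2.23 with 20 μM TubA. In FPKM, MII and TubA-20 were level (a log2 change of down to −0.11 with other scalings), and the range over the 4 libraries was 0.21 log2, the narrowest of the 10 genes. At its low level the pseudocount narrows that range, and the change between TubA-10 and TubA-20 that sets it was −0.30 with a pseudocount of 0.01. A wider range than that of *Mfn1* was seen in 94.1% of genes with at least 5 FPKM, beside a median range of 0.995 log2.

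**Figure D3:**
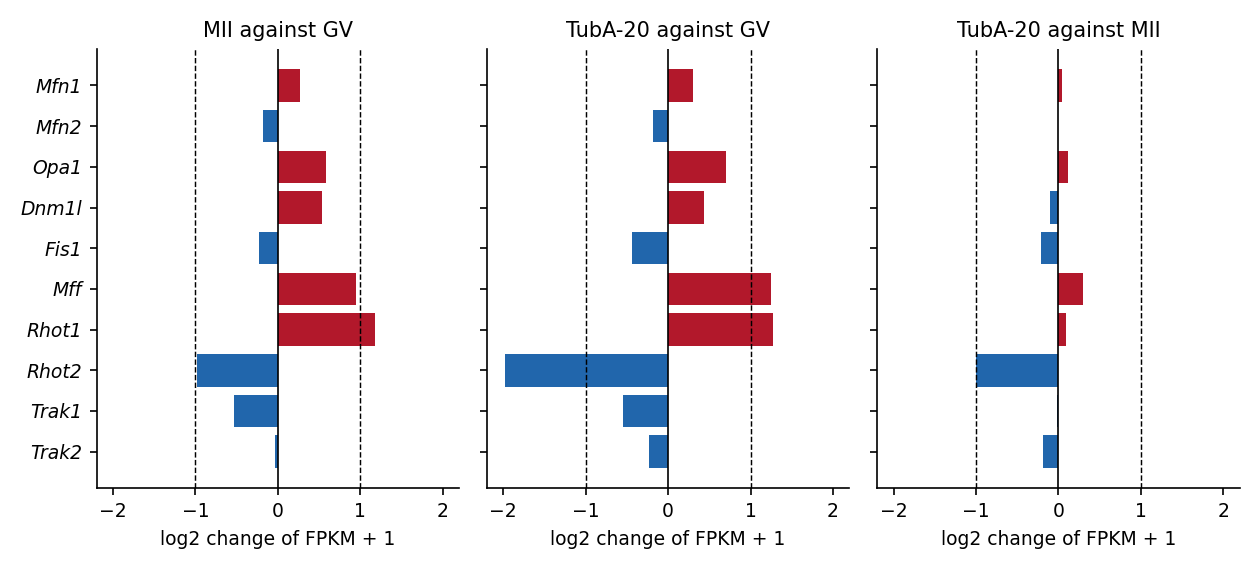
Log2 change of FPKM + 1 for each gene in MII against GV, TubA-20 against GV and TubA-20 against MII, with dashed lines at 2-fold. Bars of *Rhot1* and *Mff* point up and that of *Rhot2* down in both comparisons with GV, and only *Rhot2*, at −0.996, comes near 2-fold against MII.

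Counted together, 1 of the 10 genes was more than 2-fold higher and 0 lower in MII than in GV (8.34% of all genes and 20.8% of those with at least 5 FPKM were lower). In TubA-10 against GV 0 of 10 passed 2-fold in either direction, where 0.742% of all genes were higher and 5.60% lower (1.77% and 14.2% of those with at least 5 FPKM). In TubA-10 against MII 0 of 10 passed, beside 0.515% of all genes higher and 0.128% lower (1.29% and 0.206% of those with at least 5 FPKM). In TubA-20 against MII 0 of 10 passed, beside 0.328% higher and 2.44% lower over all genes, and 0.542% and 6.09% over those with at least 5 FPKM. Against MII these shares leave less than 1 gene in 10, so that 0 of 10 is near the background.

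The median log2 change of the 10 genes was 0.11 in MII against GV and 0.06 in TubA-20 against GV, and both turned negative with the median change set to 0 (−0.01 and −0.13). Over all genes both medians were 0. With at least 5 FPKM in either library the members' medians were 0.40 (8 genes) and 0.37 (8 genes), and those of all such genes 0.11 and 0.23. Against MII the medians of the 10 were −0.02 at 10 μM and −0.01 at 20 μM, and among genes with at least 5 FPKM the members were at −0.02 (8 genes) and 0.04 (7 genes), beside 0.01 and 0.06 over all such genes. In TubA-10 against GV the median of the 10 was 0.21, and with at least 5 FPKM that of 8 members was 0.37 beside 0.15 over all such genes. Setting the median change to 0 lowered changes relative to GV by 0.13 for MII oocytes, 0.14 for the lower and 0.19 for the higher dose. The comparisons share libraries and are not independent of each other.

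**Figure D4:**
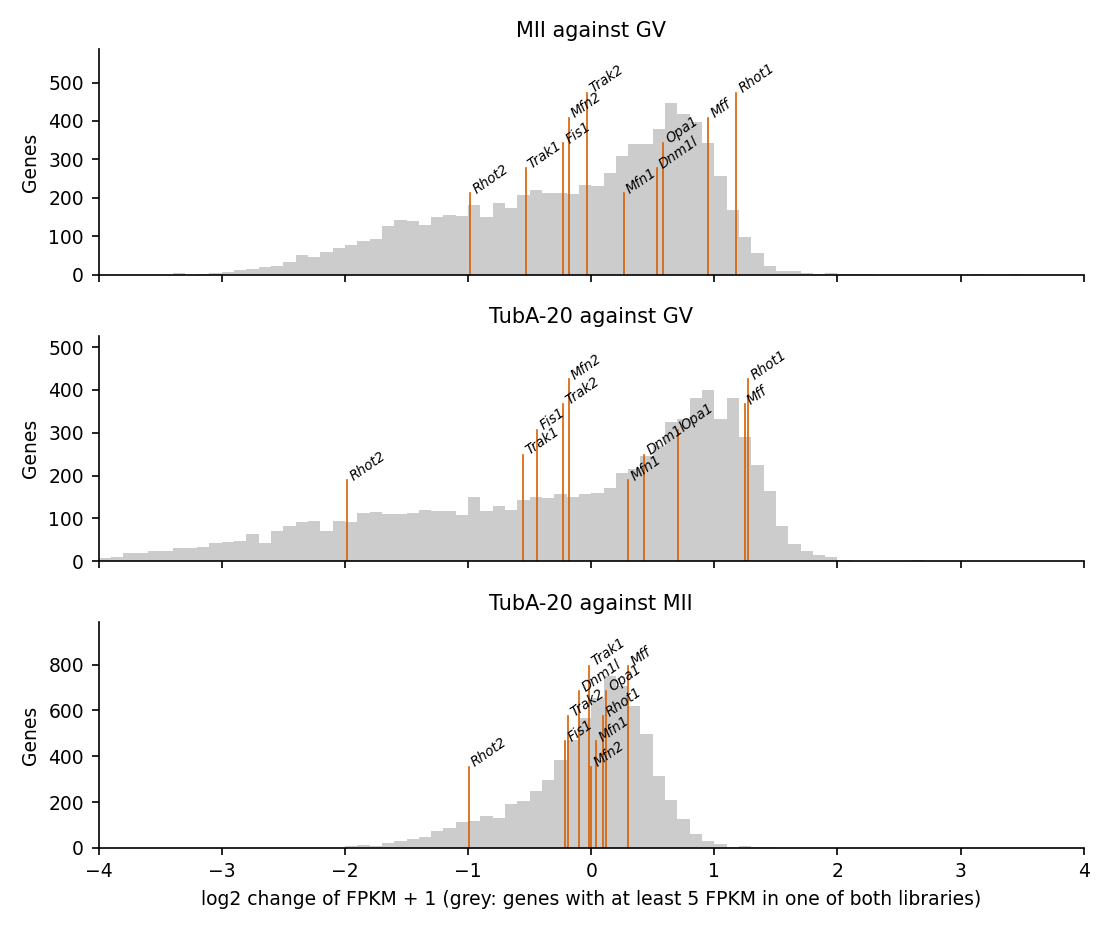
Distribution of log2 changes of FPKM + 1 over genes with at least 5 FPKM in either library (grey, number of genes) for 3 comparisons, with the 10 genes marked by vertical lines whose height has no meaning. *Rhot1* was the highest and *Rhot2* the lowest of the 10 in both comparisons with GV. *Mfn2* and *Trak2* are drawn although under 5 FPKM, as is *Rhot2* in TubA-20 against MII. In that comparison all but *Rhot2* lay between −0.21 and 0.30.

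The transcripts of both Miro genes differ in composition and length. The principal *Rhot1* transcript has 3687 bases, 43.8% G and C and a 3′ UTR of 1627 bases, and that of *Rhot2* has 3189 bases, 55.2% G and C and a 3′ UTR of 911 bases. *Fis1*, *Rhot2*, *Trak1* and *Mfn2*, the 4 genes with the highest G and C content (53.1% to 56.6%), were all lower in MII than in GV (*Fis1* and *Mfn2* by no more than 0.02 with the same *Gapdh* level), and of the other 6 only *Trak2* was (−0.04, which turned positive in 3 of the 4 scalings). By length the order was mixed. The longest transcript, *Opa1* (6230 bases), was higher and the shortest, *Fis1* (786), lower, while *Trak2* (6189), *Trak1* (4827) and *Mfn2* (4341) are also long and were lower, and *Mff* (1894) is short and was higher. Over the 7863 genes with at least 5 FPKM the change from GV to MII had a Spearman coefficient of −0.36 with G and C content and 0.43 with transcript length. The median change was 0.53 over 1965 genes under 45% and −0.55 over 1665 genes at 55% or more. Genes with a CPE within 100 bases of the signal had a median of 0.57 and the other genes −0.01. In TubA-10 against MII the signs over all these genes were reversed, with coefficients of 0.23 for G and C content and −0.40 for length. There *Fis1* (0.31), *Rhot2* (0.27), *Trak1* (0.22) and *Mfn2* (0.21) were all higher, and of the other 6 only *Mfn1* was (0.09). In TubA-20 against MII the coefficients were −0.16 and 0.14, and in TubA-10 against GV −0.36 and 0.34. In TubA-20 against GV they were −0.32 and 0.36, with median changes of 0.67 under 45% and −0.79 at 55% or more. In TubA-20 against TubA-10 they were −0.22 and 0.31, with medians of 0.23 and −0.35. The coefficients of a comparison rest on the same 2 libraries, and their part in the values of the 10 genes was not tested.

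Profiles over the 4 libraries were also compared with every other gene of at least 5 FPKM, as the Euclidean distance of log2 of FPKM + 1 after centring each gene on its mean. Over only 4 points such a likeness is a description. Nearest to *Rhot1* were *Wasl* (0.0358), *Topbp1* and *Acap2*, and nearest to *Mff* were *Cep55* (0.0220), *Chfr* and *Nfkbiz*. *Rhot2* had as nearest genes *Avpi1* (0.0442), *Ercc3* and *Hexdc*. Among the 8 members with at least 5 FPKM *Rhot1* and *Mff* were the nearest pair at 0.188, and *Rhot2* was the most isolated, with *Trak1* as its nearest member at 1.05.

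Of 50 other genes of mitochondrial shape and movement, 49 were found in the table. In MII against GV 0 of them were more than 2-fold higher and 5 lower, and the median change was 0.02. Over all genes 8.34% were lower, so 5 of 49 is near the background. With at least 5 FPKM in either library 5 of 33 on the list were lower, beside 20.8% of all such genes. The 5 were *Mul1* (−1.85), a ubiquitin ligase of the outer membrane, *Phb* (−1.44), a prohibitin scaffold of the inner membrane, *Parl* (−1.36), an inner membrane protease, and *Apoo* (−1.66) and *Chchd6* (−1.40), subunits of the cristae junction complex. In TubA-20 against MII 0 were higher and 3 lower, with a median of 0.01, where 2.44% of all genes were lower. These were *Mtfr1l* (−1.23), *Mul1* (−1.18) and *Snph* (−1.20), of which *Mul1* and *Snph* were below 5 FPKM in both libraries. A minimum of 5 FPKM thus left 1 of 30, beside 6.09% of all such genes. *Snph* was named after its value was seen. *Mtfr1l* was at 34.6 FPKM in GV oocytes, 58.8 in MII oocytes, 68.0 with 10 μM TubA and 24.5 with 20 μM TubA, so that TubA-20 alone was below GV.

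The genes in the next sentences, partners of the 10 genes and those past 2-fold in TubA-20 against GV, are named after their values were seen. *Snph*, which encodes syntaphilin, a protein that docks mitochondria on microtubules, was at 6.87 FPKM in GV oocytes, 2.998 in MII oocytes, 3.21 with 10 μM TubA and 0.746 with 20 μM TubA. *Kif5b*, a heavy chain of the kinesin that carries mitochondria, was at 13.5 FPKM in GV oocytes, 23.1 in MII oocytes, 18.7 with 10 μM TubA and 25.2 with 20 μM TubA. *Dctn1*, a subunit of the dynein activator dynactin, was at 6.01 FPKM in GV oocytes, 3.75 in MII oocytes, 3.15 with 10 μM TubA and 3.31 with 20 μM TubA. In TubA-20 against GV 3 of the 49 were more than 2-fold higher, *Immt* (1.53), *Mtfr2* (1.35) and *Spire1* (1.07), beside 7.61% of all genes. In the same comparison 8 were lower, beside 11.7% of all genes, namely *Mul1* (−3.03), *Snph* (−2.17), *Apoo* (−1.96), *Chchd6* (−1.91), *Parl* (−1.79), *Phb2* (−1.43), *Mtfr1* (−1.29) and *Pink1* (−1.21). Of all genes with at least 5 FPKM 20.2% were higher and 26.8% lower, and of 33 such genes on the list 3 and 7. *Immt*, the core subunit of the cristae junction complex, was at 79.2, 145, 156 and 231 FPKM in that order of libraries, while *Apoo* of the same complex was at 247, 77.6, 97.9 and 62.8. *Hdac6*, the gene of the drug target, was at 4.44 FPKM in GV oocytes, 3.74 in MII oocytes, 2.998 with 10 μM TubA and 1.86 with 20 μM TubA.

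**Figure D5:**
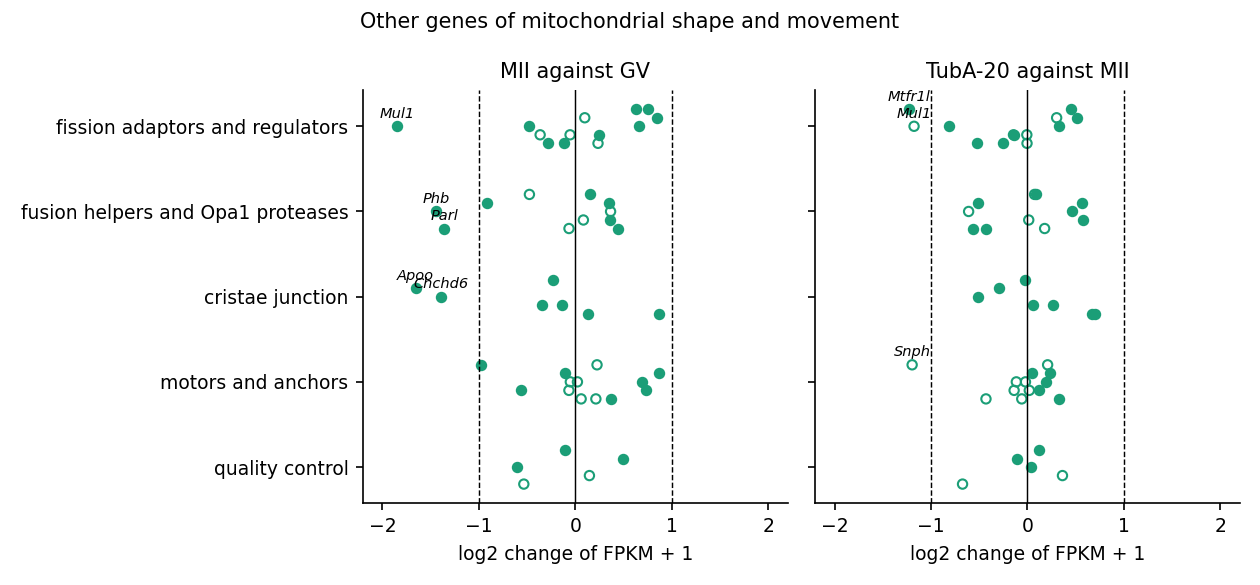
Log2 change of FPKM + 1 of 49 other genes of mitochondrial shape and movement by class, in MII against GV and in TubA-20 against MII. Filled points have at least 5 FPKM in either library, dashed lines mark 2-fold, and names are given past 2-fold, where all 5 and all 3 genes were lower.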

How the data were processed

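The authors deposited 1 table of FPKM values for 4 libraries. The submitters' processing notes name STAR 2.5.0, Cufflinks, Cuffdiff 2.2.1 and mm10, and the methods give a strand-specific library type. Labels and methods name different RNA extraction reagents. The FPKM were already divided by transcript length and mapped fragments, so whole read counts are not used here. Of 21959 entries, 21794 were given a symbol by Ensembl identifier and 165 kept their identifier. Summing entries of the same symbol gave 21957 genes. Coordinates and transcripts are from GENCODE M21 (GRCm38).

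Log2 ratios of FPKM + 1 were computed for 6 comparisons, with no filter and no further scaling, and counted beyond 2-fold. No test was possible with 1 library per condition. The 10 genes, the marker lists and the list of other genes were chosen with earlier results of these data known, and transcript features were added after values were seen. Of the other genes, those past 2-fold in MII against GV or TubA-20 against MII with at least 5 FPKM were named, and *Hdac6*. Further genes named after their values were seen are marked in the text. For likeness, the 3 nearest genes of members with the widest ranges were named. Alternatives were pseudocounts of 0.1 and 0.01, minimums of 1 and 5 FPKM, 4 scalings, thresholds of 1.5-fold and 3-fold, and the highest entry of a symbol. Scripts ran in Python 3.11.15 with pandas 2.3.3, numpy 2.4.6, matplotlib 3.10.9 and scipy 1.17.1, and were tested on simulated data.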

Additional observations from a re-analysis of the deposited data

Results flagged for a closer look

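Changes against MII that had opposite signs at both doses are listed here. The difference was not tested, and both changes rest on the same MII library. Over all genes with at least 5 FPKM the medians also changed sign with the dose, at 0.18 and −0.17 for 1665 genes with 55% G and C or more and at −0.10 and 0.10 for 1965 genes under 45%, and the reversal is not shown to be particular to the members. In TubA-10 and TubA-20 the log2 changes were 0.273 and −0.996 for *Rhot2*, 0.307 and −0.213 for *Fis1*, −0.126 and 0.298 for *Mff*, and −0.345 and 0.0978 for *Rhot1*. They were −0.202 and 0.122 for *Opa1*, 0.218 and −0.0186 for *Trak1*, and 0.212 and −0.0016 for *Mfn2*. Only the values of *Rhot2* lay more than 2-fold apart. Those of *Mfn2* and *Trak1* at the higher dose are close to 0. After scaling to the same FPKM sum or *Gapdh* level *Rhot1* and *Opa1* no longer differed in sign, nor did *Rhot1* with the same upper quartile, and *Mfn1* took opposite signs with all 3.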

How the results depend on the processing

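Of 60 log2 changes (10 genes in 6 comparisons), 7 changed sign under some alternative, and none of these was past 2-fold. Only the 4 scalings could change a sign, as the other alternatives keep it. They moved changes by far less than 2-fold, so no change past 2-fold could turn. The number of genes more than 2-fold higher in MII than in GV went from 1 to 2 when libraries were scaled to the same FPKM sum, upper quartile or *Gapdh* level, to 3 at 1.5-fold and to 0 at 3-fold. The number lower went from 0 to 1 with both smaller pseudocounts, with the median change set to 0 and at 1.5-fold. In TubA-20 against MII the number lower went from 0 to 1 with both smaller pseudocounts, all 4 scalings and at 1.5-fold. In TubA-10 against GV 2 were higher with equal *Gapdh* and at 1.5-fold, and 1 was lower at 1.5-fold. At 3-fold, TubA-20 had 0 genes higher than GV and 0 lower than TubA-10. The median of the 10 genes became −0.0114 in MII and −0.13 in TubA-20 against GV with the median change set to 0, 0.0180 in TubA-10 against MII with equal *Gapdh*, and 0.0385 in TubA-20 against MII with at least 5 FPKM. Of the 49 other genes, 6 were counted lower in TubA-20 against MII with a pseudocount of 0.1 or at 1.5-fold, and 9 with 0.01. In MII against GV 3 were higher with equal *Gapdh* or a pseudocount of 0.01, and 9 lower with the latter. In TubA-20 against GV 7 were higher with a pseudocount of 0.1, 9 with 0.01 and 11 at 1.5-fold, and 11 lower with each. At 3-fold TubA-20 had 0 of them higher than GV and 0 lower than MII, and MII had 2 lower than GV. No paired analysis was possible because each condition had 1 library. Counts per gene were not used here, so no counting error can be given, and at this depth *Rhot2* at 1.98 FPKM in TubA-20, *Mfn2* and *Trak2* are the least certain.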
